A study of Homo sapiens with 6 samples.

Results

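The aminoacyl-tRNA synthetases attach each amino acid to its transfer RNA, and the acetylation of histone H3 lysine 27 (H3K27ac) at their genes was examined here in SU-CCS-1 cells. SU-CCS-1 is an established human clear cell sarcoma (CCS) line with the genotype EWSR1::ATF1, a fusion of EWSR1 with the transcription factor ATF1. Chromatin immunoprecipitation followed by sequencing (ChIP-seq) was performed with an anti-H3K27ac antibody in 3 replicates, and 3 replicates of input, sonicated chromatin without immunoprecipitation, served as background. All 6 samples carried the fusion, no other genotype or treatment was compared, and the labels do not say whether replicates came from separate cultures. The members were 36 named genes of the 20007 protein-coding genes of GENCODE version 44, of which 20 encode cytosolic and 16 mitochondrial enzymes. The list does not hold every human synthetase gene. It was chosen by gene name and with the rank of the WARS1 region already known, so that rank is given as a description.

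The data are 1 merged list of 30784 peaks, each with a chromosome, a start and an end on hg38. The list has no values per replicate, no signal height and no read counts, so the depth behind a peak is unknown and no difference could be tested against replicates. Counts of genes are given with 95% Wilson intervals, which cover counting error only. A gene without a peak was below the calling threshold, and this does not show that it lacked the mark.

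Cytosolic synthetases serve protein synthesis on cytoplasmic ribosomes, and several of them are held in a multi-synthetase complex. Mitochondrial synthetases are encoded in the nucleus as well, mostly by separate genes, and serve the ribosomes inside mitochondria. When charged tRNA runs short, the kinase GCN2 favours translation of the transcription factor ATF4, whose known targets include amino acid transporters, enzymes of amino acid synthesis and several cytosolic synthetases. H3K27ac marks active promoters and enhancers.

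Nearly all synthetase genes had an H3K27ac peak at their start. A promoter peak, one with any base within 3 kb of an annotated transcript start site, was found at 35 of 36 members (97.2%, interval 85.8 to 99.5), beside 63.4% of all protein-coding genes. By compartment these were 20 of 20 cytosolic genes (interval 83.9 to 100) and 15 of 16 mitochondrial genes (93.8%, 71.7 to 98.9). The gene without a peak was RARS2, the mitochondrial arginyl-tRNA synthetase. Members had more annotated start sites than other genes, with quartiles of 6 and 19.2 beside 2 and 10, and their start-site windows covered a median of 20.7 kb beside 12.1 kb. The count did not rest on this surplus, because the representative start site (the MANE Select or Ensembl canonical transcript) alone lay inside a peak in 35 of 36 members, beside 53.5% of protein-coding genes. Any start site lay inside a peak in the same number of members, beside 58.2%.

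The share of members fell when only wide peaks were counted, and so did that of other genes. A promoter peak among the widest 25% of the list, at least 1760 bases, was present at 18 of 36 members (50%, 34.5 to 65.5), beside 26.9% of protein-coding genes. These were 11 of 20 cytosolic and 7 of 16 mitochondrial genes, shares of 55% and 43.8% whose intervals (34.2 to 74.2 and 23.1 to 66.8) overlapped. Protein-coding genes without any promoter peak are part of the 26.9%. Among genes with a promoter peak, 18 of 35 members and 5378 of 12684 protein-coding genes had one this wide, a smaller difference. Several promoter peaks at 1 gene were found in 7 members (19.4%, 9.75 to 35.0), beside 19.2% of protein-coding genes, a share near the background. Among genes with a promoter peak these were 7 of 35 members and 3842 of 12684 protein-coding genes, a lower share in members.

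**Figure D1:**
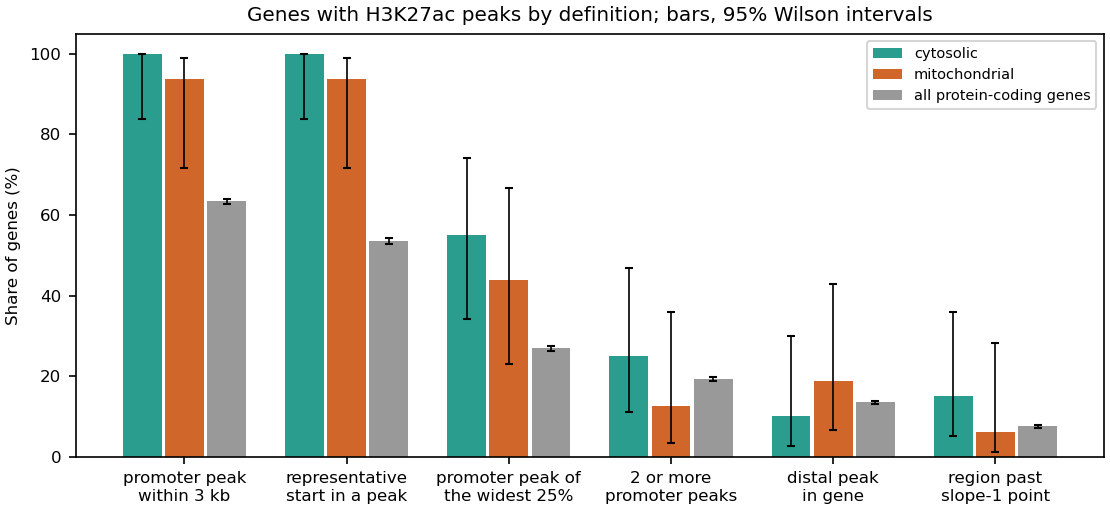
Share of genes (%, y axis) that met each of 6 definitions of an H3K27ac peak (x axis), for cytosolic (n = 20) and mitochondrial (n = 16) synthetase genes and all 20007 protein-coding genes, with 95% Wilson intervals as error bars. Both classes stand near 100% for a promoter peak while protein-coding genes stand at 63.4%, and for several promoter peaks, distal peaks and top-ranked regions the intervals of both classes include the protein-coding share.

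In all, 55 different promoter peaks belonged to the members. Of the 35 genes with one, 28 had a single promoter peak, 2 had 2, 2 had 3 and 3 had more than 3. The median summed promoter peak width was 1780 bases (quartiles 1250 and 2355), and that of the 12684 protein-coding genes with a promoter peak was 1760 bases (1190 and 2840). The typical synthetase promoter peak was thus about as wide as that of other genes. Cytosolic genes had a median of 1910 bases (1305 and 2550) and mitochondrial genes a median of 1360 bases (1145 and 1900), with ranges that overlapped from 820 to 6300 bases. Of the cytosolic genes 12 of 20, and of the mitochondrial genes 7 of 16, were at or above the protein-coding median. Widths come from broad peak calling, which joins neighbouring enriched stretches, so a width reflects how strong the signal was and not extent alone.

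**Figure D2:**
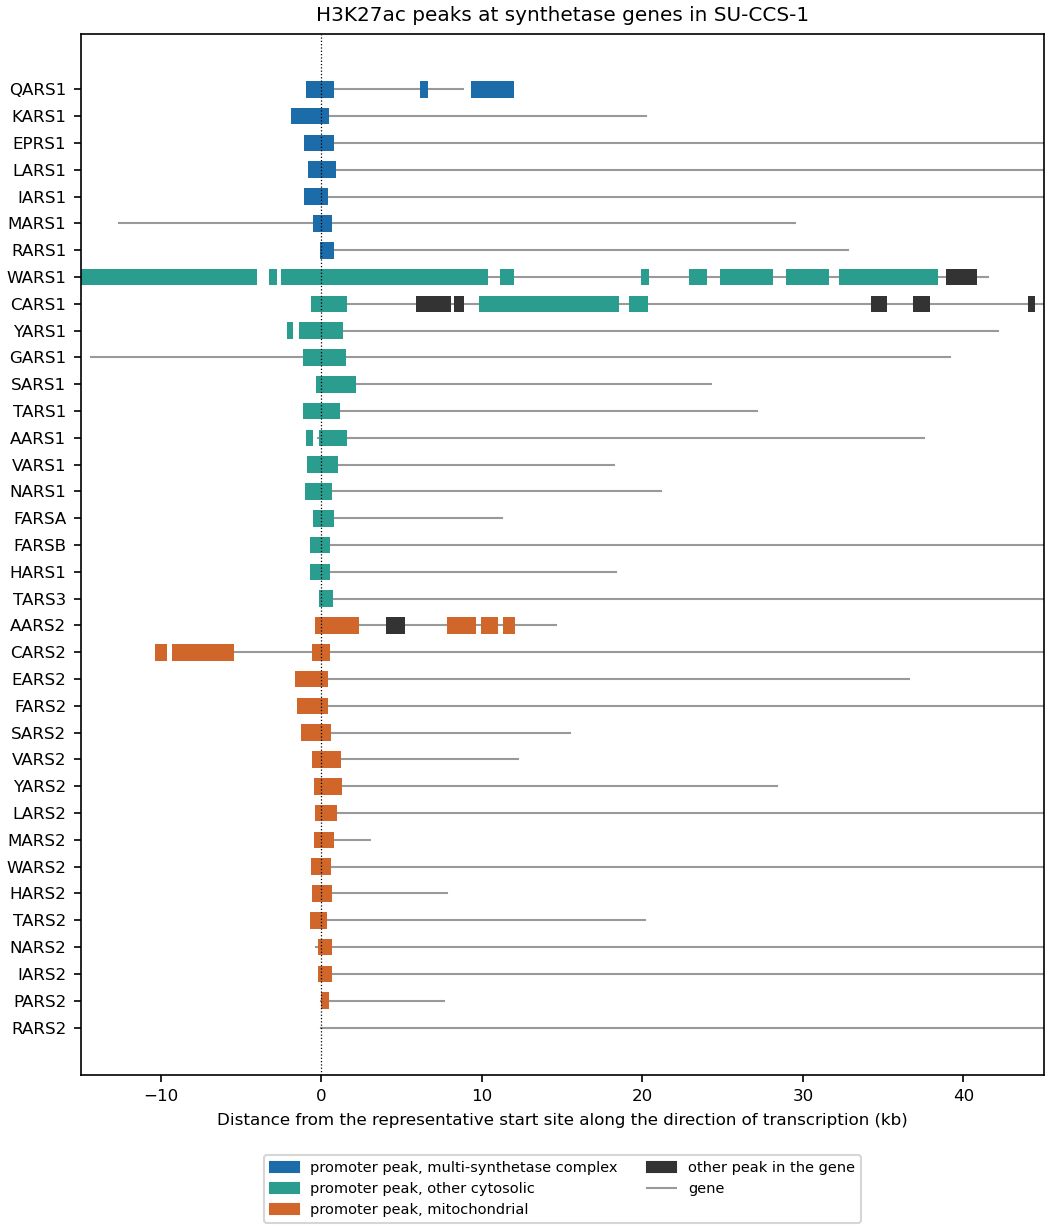
Promoter peaks (coloured by class) and other peaks in the gene (black) of the 36 synthetase genes, placed by distance from the representative start site along the direction of transcription (x axis, kb), with each gene as a grey line. Genes are ordered by summed promoter peak width within each class, and peaks and genes that run past the plotted range are drawn to its edge. Most genes have 1 peak over the start, WARS1 and CARS1 have peaks through much of the gene, and RARS2 has none.

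Genes for enzymes of the multi-synthetase complex each had a peak over the representative start, between 900 and 2370 bases wide. KARS1, which encodes the lysyl-tRNA synthetase of both compartments, had the widest of these at 2370 bases. EPRS1, the bifunctional glutamyl-prolyl-tRNA synthetase, had 1870 bases, LARS1 (leucyl) 1770 bases, IARS1 (isoleucyl) 1490 bases and MARS1 (methionyl) 1150 bases. RARS1, the cytosolic arginyl-tRNA synthetase, had the narrowest at 900 bases. QARS1, which charges tRNA with glutamine, had 3 promoter peaks with a summed width of 4940 bases, at the 90.6th percentile of protein-coding genes with a promoter peak. Its peak over the representative start measured 1750 bases, and the others reached windows of further start sites among its 36 annotated ones. The widest of the 3, at 2650 bases, lay wholly past the 3′ end of QARS1, 2697 bases from its nearest annotated start.

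Among the other cytosolic enzymes, WARS1 (tryptophanyl) and CARS1 (cysteinyl) stood apart from the rest. WARS1 had 9 promoter peaks with a summed width of 39750 bases, and CARS1 had 5 with 17480 bases, at the 99.5th percentile. The WARS1 sum includes peaks of 520 and 11790 bases that overlapped the neighbouring gene WDR25 and not WARS1. YARS1 (tyrosyl) followed with 3140 bases in 2 peaks. GARS1, the glycyl-tRNA synthetase of both compartments, had 2640 bases, SARS1 (seryl) 2520 bases, TARS1 (threonyl) 2340 bases and AARS1 (alanyl) 2170 bases, all above the protein-coding median of 1760 bases. VARS1 (valyl) had 1950 bases and NARS1 (asparaginyl) 1740 bases. Both subunits of the cytosolic phenylalanyl enzyme had peaks of nearly the same width, 1310 bases at FARSA and 1290 bases at FARSB. The narrowest was TARS3, a further threonyl-tRNA synthetase gene, with 820 bases.

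The widths of WARS1 and CARS1 depended on the start sites counted. With the representative start alone, WARS1 had 2 promoter peaks of 13430 bases in all and CARS1 had 1 of 2220 bases. WARS1 has 35 annotated start sites over a gene of 43.0 kb, of which 32 lay inside a peak, and CARS1 has 14, of which 13 did. These shares, 91.4% and 92.9%, compare with 37.5% for MARS1 (9 of 24 start sites) and 14.3% for VARS1 (2 of 14). Such high shares were not particular to WARS1 and CARS1. HARS2 had 93.3% (14 of 15) with a single peak of 1240 bases, and FARSA had 87.5% (7 of 8). AARS2, MARS2 and PARS2, with 1 or 2 annotated starts each, had 100%.

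Mitochondrial synthetase genes with a peak ranged from 500 bases at PARS2 (prolyl) to 6300 bases in 4 peaks at AARS2 (alanyl). CARS2 (cysteinyl) had 5800 bases in 3 peaks. With the representative start alone AARS2 kept 1 promoter peak of 2700 bases, still the widest of its class, and CARS2 kept 1 of 1140 bases. The position of CARS2 near the top of its class thus depended on further start sites, and that of AARS2 did not. EARS2, which charges mitochondrial tRNA with glutamate, had 2110 bases, FARS2 (phenylalanyl) 1940 bases, SARS2 (seryl) 1860 bases, VARS2 (valyl) 1800 bases and YARS2 (tyrosyl) 1780 bases. Below the protein-coding median stood LARS2 (leucyl) with 1360 bases, MARS2 (methionyl) with 1270 bases, WARS2 (tryptophanyl) with 1260 bases, HARS2 (histidyl) with 1240 bases and TARS2 (threonyl) with 1050 bases. NARS2 (asparaginyl) with 910 bases and IARS2 (isoleucyl) with 860 bases were narrower still.

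Of 13 pairs of a cytosolic and a mitochondrial gene with the same root name, the cytosolic gene had the larger summed promoter width in 10, the mitochondrial gene in 2, and the widths were equal in 1. The counts were the same with the representative start alone, and no test was made of them. The differences ran from 39750 against 1260 bases for WARS1 and WARS2 to 1950 against 1800 bases for VARS1 and VARS2, and the 10 include RARS1, whose mitochondrial counterpart had no peak. The order was the other way for AARS1 (2170 bases) and AARS2 (6300 bases) and for MARS1 (1150 bases) and MARS2 (1270 bases). HARS1 and HARS2 share a single peak and have the same width of 1240 bases. Outside these pairs, the mitochondrial gene FARS2 (1940 bases) exceeded FARSA and FARSB (1310 and 1290 bases), the cytosolic genes for the same amino acid. EPRS1 (1870 bases), which serves glutamate and proline, was exceeded by the mitochondrial gene EARS2 (2110 bases) but was itself wider than PARS2 (500 bases).

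**Figure D3:**
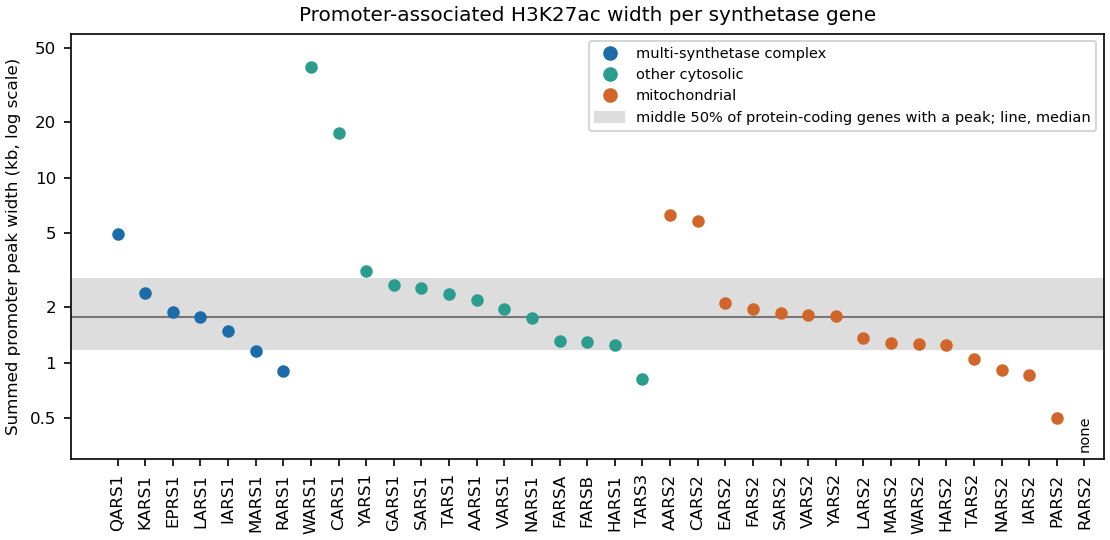
Summed width of promoter peaks (kb, log scale, y axis) for each of the 36 synthetase genes (x axis), coloured by class, with the grey band and line giving the quartiles and median of protein-coding genes with a promoter peak. WARS1 at 39750 bases and CARS1 at 17480 bases lie furthest above the band, PARS2 at 500 bases lies furthest below it, and RARS2 had no peak. Further genes lie outside the band on both sides, such as AARS2 at 6300 bases and TARS3 at 820 bases.

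RARS2 lay in a long stretch without peaks. The gene spans chromosome 6 from 87513459 to 87590028, with its representative start at 87589987 on the minus strand, and none of its 23 annotated start sites was inside a peak. The nearest peak was 90.1 kb upstream of that start (chromosome 6, 87680121 to 87681490, 1370 bases). The stretch without a peak measured 206 kb, and 90.4% of all gaps between neighbouring peaks were shorter. It held 1 other protein-coding start, that of ORC3, which encodes a subunit of the origin recognition complex and is transcribed away from RARS2 from a start 148 bases off. Among the 11 other protein-coding genes with a start within 500 kb, 6 had a promoter peak. The RARS2 start window had a GC content of 64.7% and an observed-to-expected CpG ratio of 1.0, values inside the range of members that had a peak.

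The peaks over start sites reached to both sides. From the representative start the median reach of the 35 member peaks was 657 bases upstream and 774 bases downstream, beside 668 and 847 bases for protein-coding genes with such a peak. The peak reached further downstream than upstream in 20 of 35 members (57.1%), beside 65.3% of protein-coding genes. The longest reach downstream was 10396 bases at WARS1, followed by 2316 bases at AARS2 and 2182 bases at SARS1. The longest reach upstream was 2513 bases, again at WARS1. Peaks of KARS1 (1905 bases upstream), EARS2 (1680 bases) and FARS2 (1532 bases) came next and ran over the starts of divergent neighbours.

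A protein-coding neighbour transcribed in the opposite direction from a start within 1 kb was annotated for 8 members (22.2%), beside 10% of protein-coding genes. HARS1 and HARS2, the histidyl-tRNA synthetase genes of both compartments, stand head to head with starts 85 bases apart and share 1 peak (chromosome 5, 140690851 to 140692090). KARS1 pairs with TERF2IP, a telomere protein gene, at 108 bases, SARS2 with the mitochondrial ribosomal protein gene MRPS12 at 181 bases, YARS1 with S100PBP at 295 bases, EARS2 with UBFD1 at 377 bases, and FARS2 with LYRM4, a gene of iron-sulphur cluster assembly, at 563 bases. Each of these pairs shared a peak, and the pair of RARS2 and ORC3 had none. Peaks of 13 members in all (36.1%, beside 23.3% of protein-coding genes) were also promoter peaks of another protein-coding gene. Only a gene with a promoter peak can share one. Among genes with a peak the counts were 13 of 35 members and 4670 of 12684 protein-coding genes, which are similar shares. Besides the head-to-head pairs, the other genes were DDX19B for AARS1, ARHGAP9 for MARS1, ING1 for CARS2 and GTF2H4 for VARS2. For QARS1 they were QRICH1 and an unnamed gene, and for WARS1 it was WDR25. The mark at such a start cannot be assigned to either gene from the list.

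Sequence around the start sites was then examined, because the fusion retains the DNA-binding domain of ATF1 and the study asked which forms of the ATF/CREB motif it binds. RefSeq windows of 300 bases on hg38 (250 before a start and 50 from it on) were matched for 30 of 36 members and 15345 protein-coding genes, and all of these windows were identical to the hg38 sequence used here. LARS1, TARS3, VARS1, YARS1, AARS2 and VARS2 had no matched window. Of the 30 windows, 29 overlapped a peak (96.7%, beside 56.7% of protein-coding windows), and 23 lay wholly inside peaks. Median GC content was 62% in members and 63% in protein-coding windows, and the median observed-to-expected CpG ratio was 0.868 and 0.767.

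In all, 10 motifs were searched on both strands, and a match is a match of letters and not a bound site. Shares given for protein-coding windows are over all 15345 of them, with or without a peak. Of these 56.7% overlapped a peak, beside 96.7% of member windows, so the 2 sets are unlike in this. TGATGNAA, the core of the element bound by ATF4 with C/EBP partners, was present in 7 of 30 member windows (23.3%, interval 11.8 to 40.9), beside 2.54% of protein-coding windows. It was found in 6 of 16 cytosolic windows (AARS1, CARS1, IARS1, MARS1, NARS1 and TARS1) and in 1 of 14 mitochondrial windows (YARS2). In each of the 6 cytosolic genes the letters were TTGCATCA or its complement TGATGCAA, and in YARS2 they were TGATGGAA. The match stood close to the start in 5 of the 6, beginning 13 bases before it in IARS1, 4 before it in MARS1, 2 before it in CARS1, 2 after it in TARS1 and 14 after it in NARS1. In AARS1 it began 187 bases before the start and in YARS2 197 bases before it.

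CCGGAAG, the core recognised by ETS factors, was present in 14 of 30 member windows (46.7%, 30.2 to 63.9), beside 14.4% of protein-coding windows, in 8 of 16 cytosolic and 6 of 14 mitochondrial genes. The windows of HARS1 and HARS2, both among the 14, overlap, so 1 stretch of sequence can count in both classes. The interval treats them as separate. The canonical ATF/CREB site TGACGTCA was in none of the 30 windows (interval 0 to 11.4%), beside 2.64%, and the AP1 site TGAGTCA was also in none, beside 3.68%. The flexible form TGANNTCA, which includes TGACGTCA, was in 1 window, that of MARS1 (3.33%, beside 10%). The remaining motifs were CCAAT (16 windows, 53.3%, beside 36.6%), the GC box GGGCGG (21 windows, 70%, beside 59.2%), the E-box CACGTG (4 windows, 13.3%, beside 8.89%), the interferon-gamma element TTCNNNGAA (4 windows, 13.3%, beside 6.95%) and the NRF1 core GCATGCGC (2 windows, 6.67%, beside 4.25%). In the central 400 bases of the 34 peaks over representative starts, TGATGNAA was present in 4 (11.8%, 4.67 to 26.6), beside 1.61% of 9529 such peaks, and CCGGAAG in 8 (23.5%, 12.4 to 40), beside 16.1%. TGANNTCA, which was below the background share in the start-site windows, was above it there, in 5 of 34 (14.7%, 6.45 to 30.1), beside 6.64%. TGACGTCA and TGAGTCA were each present in 1 of the 34 (2.94%), beside 1.90% and 2.74%. The other motifs were present in 24 (GGGCGG, 70.6%, beside 75.5%), 10 (CCAAT, 29.4%, beside 27.1%), 4 (CACGTG, 11.8%, beside 8.49%), 2 (TTCNNNGAA, 5.88%, beside 5.90%) and 0 (GCATGCGC, interval 0 to 10.2%, beside 3.58%).

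The windows with TGATGNAA and that of WARS1 are shown so that the position of the motif can be read beside the start, and they were chosen after the counts had been seen. Each runs 5′ to 3′ on the strand of the gene, from 250 bases before the RefSeq start to 25 bases from the start on, and all 8 lie in or across a promoter peak. In AARS1 the window is only partly covered, and the match itself lies in the gap between 2 promoter peaks (chromosome 16, 70289660 to 70290011). Capitals mark TGATGNAA on either strand, except in WARS1, which holds none and where they mark CCGGAAG. Positions on hg38 are chr14:100376303-100376577 (minus strand) for WARS1, chr11:3057399-3057673 (minus) for CARS1, chr5:33440715-33440989 (plus) for TARS1, chr16:70289482-70289756 (minus) for AARS1, chr12:32755873-32756147 (minus) for YARS2, chr18:57621812-57622086 (minus) for NARS1, chr9:92293673-92293947 (minus) for IARS1 and chr12:57487818-57488092 (plus) for MARS1.
WARS1: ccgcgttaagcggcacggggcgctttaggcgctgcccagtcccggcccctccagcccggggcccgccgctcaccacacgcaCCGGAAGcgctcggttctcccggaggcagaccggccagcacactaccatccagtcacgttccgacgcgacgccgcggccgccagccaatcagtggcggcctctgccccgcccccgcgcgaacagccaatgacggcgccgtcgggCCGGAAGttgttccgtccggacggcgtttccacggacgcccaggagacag
CARS1: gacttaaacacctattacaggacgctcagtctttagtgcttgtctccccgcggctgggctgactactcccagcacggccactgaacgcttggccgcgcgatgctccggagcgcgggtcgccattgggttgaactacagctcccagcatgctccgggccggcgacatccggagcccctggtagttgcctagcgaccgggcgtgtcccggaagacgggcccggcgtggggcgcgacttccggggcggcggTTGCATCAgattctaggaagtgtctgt
TARS1: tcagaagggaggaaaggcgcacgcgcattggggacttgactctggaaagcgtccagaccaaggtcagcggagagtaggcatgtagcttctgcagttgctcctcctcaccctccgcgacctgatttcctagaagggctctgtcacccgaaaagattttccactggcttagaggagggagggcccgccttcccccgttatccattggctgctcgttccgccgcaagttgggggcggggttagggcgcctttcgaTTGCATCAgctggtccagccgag
AARS1: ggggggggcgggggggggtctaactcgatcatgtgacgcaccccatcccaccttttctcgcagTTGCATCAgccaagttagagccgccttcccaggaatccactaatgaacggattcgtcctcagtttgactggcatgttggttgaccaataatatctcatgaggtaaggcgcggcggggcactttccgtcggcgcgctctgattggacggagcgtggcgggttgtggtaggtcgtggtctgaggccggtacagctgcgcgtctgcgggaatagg
YARS2: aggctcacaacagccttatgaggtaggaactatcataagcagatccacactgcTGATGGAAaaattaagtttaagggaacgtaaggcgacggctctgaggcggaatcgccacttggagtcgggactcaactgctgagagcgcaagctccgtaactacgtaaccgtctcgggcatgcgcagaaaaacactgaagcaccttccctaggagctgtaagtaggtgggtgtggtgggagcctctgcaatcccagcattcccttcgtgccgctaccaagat
NARS1: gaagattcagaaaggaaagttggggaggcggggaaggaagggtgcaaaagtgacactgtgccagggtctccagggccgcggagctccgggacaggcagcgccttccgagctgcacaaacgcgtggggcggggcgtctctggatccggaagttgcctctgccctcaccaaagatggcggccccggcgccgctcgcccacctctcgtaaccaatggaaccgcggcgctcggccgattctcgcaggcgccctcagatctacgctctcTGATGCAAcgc
IARS1: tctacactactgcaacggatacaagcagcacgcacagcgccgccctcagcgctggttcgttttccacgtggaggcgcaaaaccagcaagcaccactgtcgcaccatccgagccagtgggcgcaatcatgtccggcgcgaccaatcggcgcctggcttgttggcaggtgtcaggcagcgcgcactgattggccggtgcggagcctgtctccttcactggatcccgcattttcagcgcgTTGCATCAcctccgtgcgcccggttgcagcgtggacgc
MARS1: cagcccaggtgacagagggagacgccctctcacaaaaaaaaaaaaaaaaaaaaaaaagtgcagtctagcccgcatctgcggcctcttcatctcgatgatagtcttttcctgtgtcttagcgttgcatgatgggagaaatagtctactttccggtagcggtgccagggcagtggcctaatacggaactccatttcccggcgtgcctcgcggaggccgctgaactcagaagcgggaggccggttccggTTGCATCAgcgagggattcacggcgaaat

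In WARS1 the start used by RefSeq lies 980 bases upstream of the representative start, and CCGGAAG began 169 and 25 bases before it. The genes with TGATGNAA ranged from 1150 bases of promoter peaks (MARS1) to 17480 bases (CARS1), so their widths covered both sides of the protein-coding median.

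WARS1 stood in the largest stitched region of the list, where stitching joined neighbouring peaks at the distance that the study used to build super-enhancers. The region ran over 117.8 kb of chromosome 14 (100332051 to 100449810) and was ranked 1 of 17049 by summed peak width, which was 95.58 kb or 81.2% of its span. Gaps between its 20 peaks had a median of 750 bases and a maximum of 7910 bases. Ranks here come from peak width, since the list has no signal, and are not the super-enhancer calls of the study.

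Most of this width lay outside WARS1. In all, 8 peaks overlapped WARS1, with 29.36 kb (30.7% of the summed width), and 11 peaks with 64.75 kb (67.7%) overlapped only its divergent neighbour WDR25, whose function is little known. The peak over the representative WARS1 start (100364951 to 100377860) was 12.91 kb wide and also covered the representative WDR25 start. It reached 2513 bases upstream and 10396 bases downstream of the WARS1 start, into the gene. The widest peak of the region, 21.55 kb (100398841 to 100420390), lay inside WDR25, with its near edge at -23.49 kb from the WARS1 start (minus for upstream). Of the 20 peaks 4 were wider than 10 kb and held 64.5% of the width, and 7 were narrower than 1 kb.

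The region kept rank 1 when peaks were stitched within 5 kb (78.52 kb) or 25 kb (121.1 kb). It was ranked 2 after removal of peaks lying entirely inside 2.5 kb around start sites, and by span it was ranked 3.

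**Figure D4:**
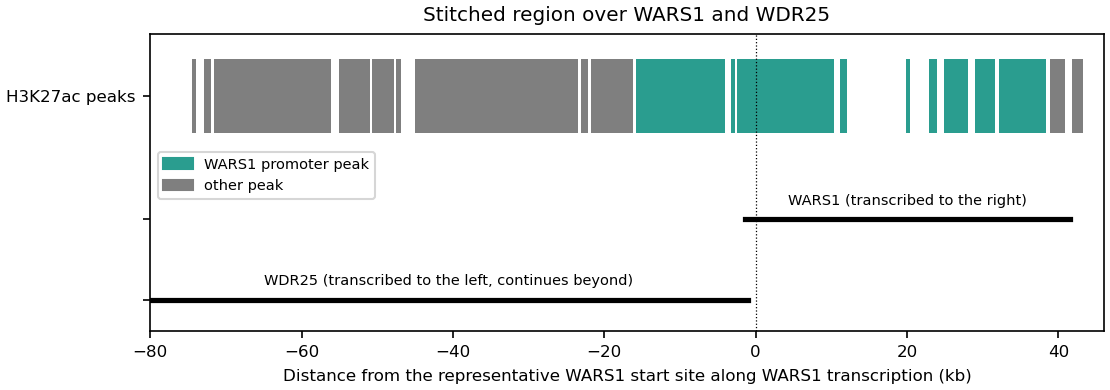
The 20 peaks of the stitched region over WARS1 and WDR25, placed by distance from the representative WARS1 start along WARS1 transcription (x axis, kb), with promoter peaks of WARS1 in green, other peaks in grey and both protein-coding genes as black lines. Peaks fill 81.2% of the span, and the larger part of their width lies to the left of the WARS1 start, in WDR25.

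Besides WARS1, 3 members overlapped one of the top-ranked stitched regions, defined as those beyond the bend of the ranked curve (a slope of 1 with rank and width each rescaled to a maximum of 1). These were 879 regions with summed widths from 7.99 kb. That made 4 of 36 members (11.1%, 4.41 to 25.3), beside 7.59% of protein-coding genes, a share whose interval includes the background. CARS1, next to a cluster of imprinted genes, overlapped 2 such regions. Its 5′ part held a region ranked 278 (chromosome 11, 3037071 to 3058080) with 5 peaks of 14.91 kb, all of them in CARS1, and its 3′ part a region ranked 351 (2987551 to 3023160) with 8 peaks of 13.20 kb, of which 6 lay in CARS1 and the rest in NAP1L4, a histone chaperone gene. The widest CARS1 peak measured 8.70 kb and began 9.843 kb downstream of the representative start.

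The region of AARS2 was ranked 113 (chromosome 6, 44294461 to 44343370) and held 14 peaks with 21.56 kb. Of these, 5 peaks with 7.49 kb lay in AARS2. The other 9 lay on both sides, towards TCTE1 and TMEM151B on one and SPATS1 on the other, and an unnamed protein-coding gene spanned the whole region. VARS1, in the major histocompatibility complex, was at 1 end of a region ranked 224 (chromosome 6, 31794731 to 31836890) with 10 peaks and 16.35 kb, but only 1 of these peaks, of 1.95 kb, was in VARS1. The rest lay at or near LSM2 and the heat shock genes HSPA1A, HSPA1B and HSPA1L. For VARS1 the rank therefore describes its neighbours. The other 31 members with a peak lay outside such regions, and most had a region of 1 peak.

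Other peaks inside the gene bodies were few. In all, 12 peaks overlapped 6 members without being within 3 kb of a start of that member, and 3 of these were near a start of another gene. Distal peaks, beyond 3 kb of any annotated start, were found in 5 members (13.9%, 6.08 to 28.7), beside 13.5% of protein-coding genes, and the density was 0.412 per 100 kb of gene beside 0.528. CARS1 had 4 of the 9 distal peaks, of which 3 had their midpoint in introns 10, 11 and 17 of the representative transcript. FARSB had 2 in intron 15, of 480 and 1240 bases, at 51082 and 49302 bases from its representative start. AARS2 had 1 of 1190 bases in intron 5. FARS2, the longest member at 568 kb, had a single distal peak of 400 bases in intron 6, 462418 bases from the start, and LARS2 (166 kb) had 1 of 400 bases past the end of its representative transcript. No gene of the multi-synthetase complex had one (0 of 7, interval 0 to 35.4%).

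The 3 kb rule left peaks near its limit on both sides. Just inside were a CARS1 peak of 430 bases at 2830 bases from a start, a QARS1 peak of 2650 bases at 2697 bases and the WARS1 peak of 11790 bases at 2566 bases. Just outside were peaks at 3153 bases from AARS1, 3244 bases from AARS2 and 3318 bases from MARS1. The last, 5340 bases wide (chromosome 12, 57518501 to 57523840), is a promoter peak of DDIT3, a stress response gene at the 3′ end of MARS1.

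Other genes of tRNA charging and of the amino acid response were read by the same rules. Every gene of the 4 short lists that come first had a promoter peak, but with 2 to 4 genes each the intervals began at 34.2 to 51% and included the 63.4% of protein-coding genes. Among the scaffold genes of the multi-synthetase complex the width was 1640 bases at AIMP1, 1810 bases at AIMP2 and 450 bases at EEF1E1, and in EEF1E1 the peak did not cover the representative start. The partners of mitochondrial charging, QRSL1, GATB and GATC (the amidotransferase that completes glutaminyl-tRNA) and MTFMT (which formylates the initiator methionyl-tRNA), had peaks of 800 to 1450 bases. PSTK and SEPSECS, which make selenocysteinyl-tRNA, had 2290 and 2140 bases. The tRNA editing and recycling genes AARSD1, DTD1, DTD2 and PTRH2 had 790 to 1510 bases, and in PTRH2 the representative start was not inside a peak.

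The amino acid response list had a higher median promoter width than the synthetases, a difference given without a test. A promoter peak was present at 18 of 20 of its genes (90%, 69.9 to 97.2, beside 63.4% of protein-coding genes), with a median of 3515 bases. A peak among the widest 25% of all peaks was present at 14 of 20 (70%, 48.1 to 85.5, beside 26.9%). Among genes with a promoter peak these were 14 of 18, beside 5378 of 12684 protein-coding genes. SLC7A5, a transporter of large neutral amino acids, had 38.07 kb, its partner SLC3A2 8.29 kb, and DDIT4, an inhibitor of mTORC1 signalling, 9.13 kb. DDIT3 had 5.95 kb, ATF4 5.22 kb, the serine synthesis genes PHGDH and PSPH 5.21 and 5.12 kb, EIF4EBP1 4.70 kb and EIF2AK4, which encodes GCN2, 3.92 kb. NUPR1, ATF5 and TRIB3 had 3.11, 3.01 and 2.87 kb. PSAT1, also a serine synthesis gene, had only 1.85 kb, and MTHFD2, SHMT2 and SESN2 had 1.88, 1.66 and 1.41 kb. The width of PHGDH is the sum of 4 peaks, none of which covered its representative start. The asparagine synthetase gene ASNS, at 560 bases, and CHAC1, at 430 bases, had narrow peaks, and STC2 and the cystine transporter gene SLC7A11 had none. The CHAC1 peak did not cover the representative start. TGATGNAA was present in 3 of the 15 genes of this list with a window, beside 2.54% of protein-coding windows. These were ASNS, CHAC1 and SLC3A2, whose promoter widths ranged from 430 to 8290 bases.

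WARS1 is known to be induced by interferon-gamma, and a link of that response to its width was not tested. The rank of the WARS1 region was known beforehand, so widths of other genes of the response are given as a description only. PSMB9 had 3.51 kb, TAP1 2.37 kb, GBP2 1.41 kb, IRF1 1.11 kb and IDO1 0.44 kb. In GBP2 and IDO1 the representative start was not inside a peak. GBP1, CXCL9 and CXCL10 had no promoter peak, and 63.4% of all protein-coding genes had one.

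**Figure D5:**
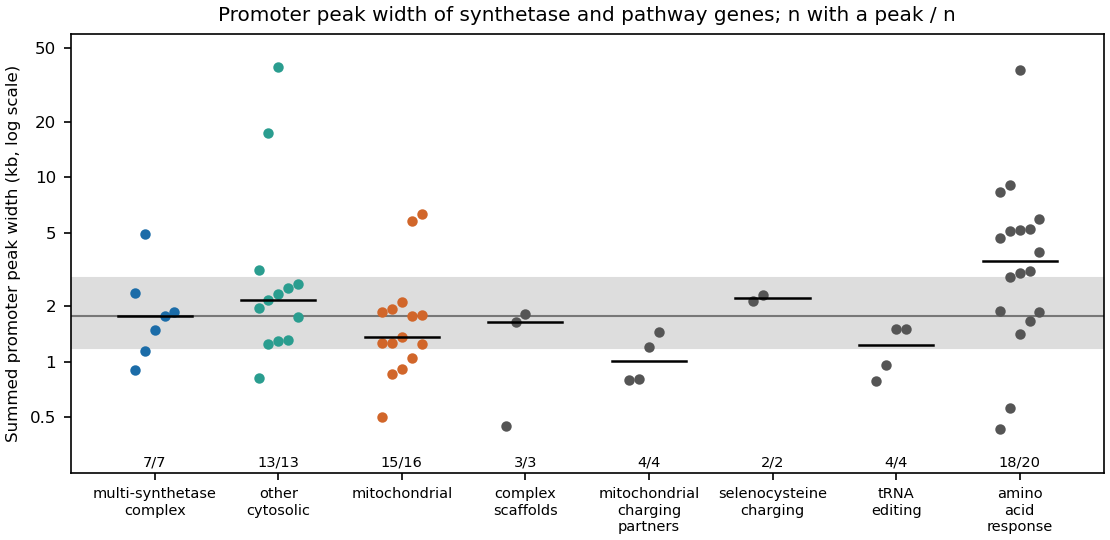
Summed promoter peak width (kb, log scale, y axis) of each gene with a promoter peak in the 3 synthetase classes and 5 other lists (x axis), with black lines at the medians, the number of genes with a peak over the number listed below, and the grey band and line for the quartiles and median of protein-coding genes. The amino acid response genes have the highest median, 3515 bases beside 1760 for protein-coding genes, and the charging partners and editing genes lie low.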

How the data were processed

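ChIP-seq for H3K27ac and input was available for 6 SU-CCS-1 samples, 3 of each. Reads were mapped by the authors with BWA-MEM on hg38 (version 0.7.10-r789, per the submitters' processing notes), removed duplicates, called broad peaks with MACS2 (2.2.6) against input and dropped denylisted regions. The deposited list holds 4 columns (chromosome, start, end and a peak name). How replicates were joined and the reads per sample are not given in it.

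Peaks were assigned to GENCODE version 44 genes by overlap with 3 kb on each side of annotated start sites, and stitched within 12.5 kb, using Python 3.11.15, numpy 2.4.6 and scipy 1.17.1. Start-site windows came from RefSeq. Scripts were tested on simulated intervals. Every synthetase gene of the list was named, and 1 pathway gene is not reported here. The members, lists and definitions were chosen with earlier results of these data known. No significance test was made. Alternatives changed the window, start sites, peak widths and stitching.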

Additional observations from a re-analysis of the deposited data

How the results depend on the processing

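In all, 11 results were recomputed under 52 alternatives, and 45 of these stayed within 1.5 times the value reported. The 7 others kept only wide peaks, and so had fewer peaks by construction. With the widest 25% of peaks, a promoter peak remained at 11 cytosolic and 7 mitochondrial synthetase genes, at 19 pathway genes and at 5378 protein-coding genes, a start site lay inside a peak in 17 synthetase genes, and a distal peak was found in 1. With the widest 50%, distal peaks were found in 3 synthetase genes, beside 5 with all peaks. No paired analysis was possible because replicates have no columns of their own, and for the same reason no replicate could be left out. Sequencing depth sets which weak peaks were called, and its part was not tested.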
